A study of Sus scrofa with 17 samples.

Results

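The genes described here are 40 regulators and machine parts of the cell cycle and of DNA replication, followed through RNA sequencing of right ventricular myocardium from 17 pigs (Sus scrofa). They were picked by symbol, from the G1 cyclins to the anaphase machinery, and not by a measured difference. Earlier results of these data were known when they were picked. A row with the symbol was found for 36 of the 40, and all 36 had enough counts to be tested, among 15884 tested genes of 35670 in the table. MKI67, CCNE1, AURKA and RRM2 had no row under their symbol and carry no value as members. All animals had right ventricular pressure overload, in which the right ventricle pumps against a raised load. The multidose group (7 animals) was given umbilical cord blood mononuclear cells more than once, the single dose group (5 animals) was given them once, and the vehicle control group (5 animals) was given vehicle without cells. The dose, the time of harvest, the sex, the age and the weight are not given for each library,, nor is the number of cells given. Each library came from a different animal according to the series text.

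A cell that divides passes through G1, in which D-type cyclins start the cycle, then S phase, in which the MCM helicase opens origins and the polymerase clamp PCNA travels with the replication forks, and then mitosis, in which cyclin B and CDK1 drive the assembly of the spindle. The genes for replication are mostly read at the start of S phase under E2F factors, and those for mitosis in G2. Adult cardiomyocytes are largely withdrawn from the cycle, but the age of these animals is not given. In heart tissue the transcripts of these genes can come from several cell types, among them endothelial cells, fibroblasts and leukocytes. In bulk tissue, fewer cycling cells and less of the transcript in each cell cannot be told apart.

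The tissue was checked against its markers. The 9 cardiomyocyte markers with a row, MYH7, TNNT2 and MYL2 among them, summed to between 40322 and 74615 CPM (counts scaled to the size of the library) in the 17 libraries, and TTN had no row. Total counts ran from 21754800 to 61144663 per library. The names of 5 libraries (multidose 1 to 4 and single dose 1) begin with M1, while the remaining 12 names, those of all 5 controls included, start with M8 or M9. The labels leave the meaning of the names unstated. The M1 libraries held 21754800 to 40969168 counts and the others 40621934 to 61144663. Over all genes, 2220 of 15884 (14%) differed between the libraries named M1 and the rest in a model that also holds the group, and 0 differed between any pair of groups, by edgeR's quasi-likelihood test at an adjusted p of 0.05. A further library, vehicle control 4, stood apart in the mitotic genes and is described first.

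The largest differences among the 36 genes were between single animals, and none of the 36 passed the threshold between treatment groups. For each gene, the log2 CPM in a library was set against the gene's median over the 17 libraries, and the deviations were then summarised over the 17 mitotic genes that were tested (cyclins, kinases, spindle and anaphase genes). In vehicle control 4 the median deviation of the mitotic genes was -1.92, and this library was the lowest of 17 for 14 of the 17 mitotic genes and for 19 of the 36 genes. Vehicle control 5 (-0.84) and vehicle control 2 (-0.67) were the next lowest, below the lowest treated library, multidose 5 at -0.61. Single dose 5 lay at the other end, with a median deviation of 0.84, and was the highest of 17 for 8 of the 17 mitotic genes. Vehicle control 1 and multidose 2 followed at 0.58 each, and vehicle control 3 lay at 0.37. Control animals therefore spanned the widest range of the 3 groups, from -1.92 to 0.58 (mean -0.49 ± 1.01, SD, n = 5), against -0.61 to 0.58 in the multidose animals (0.06 ± 0.44, SD, n = 7) and -0.39 to 0.84 in the single dose animals (0.09 ± 0.49, SD, n = 5). The 3 ranges overlapped.

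**Figure D1:**
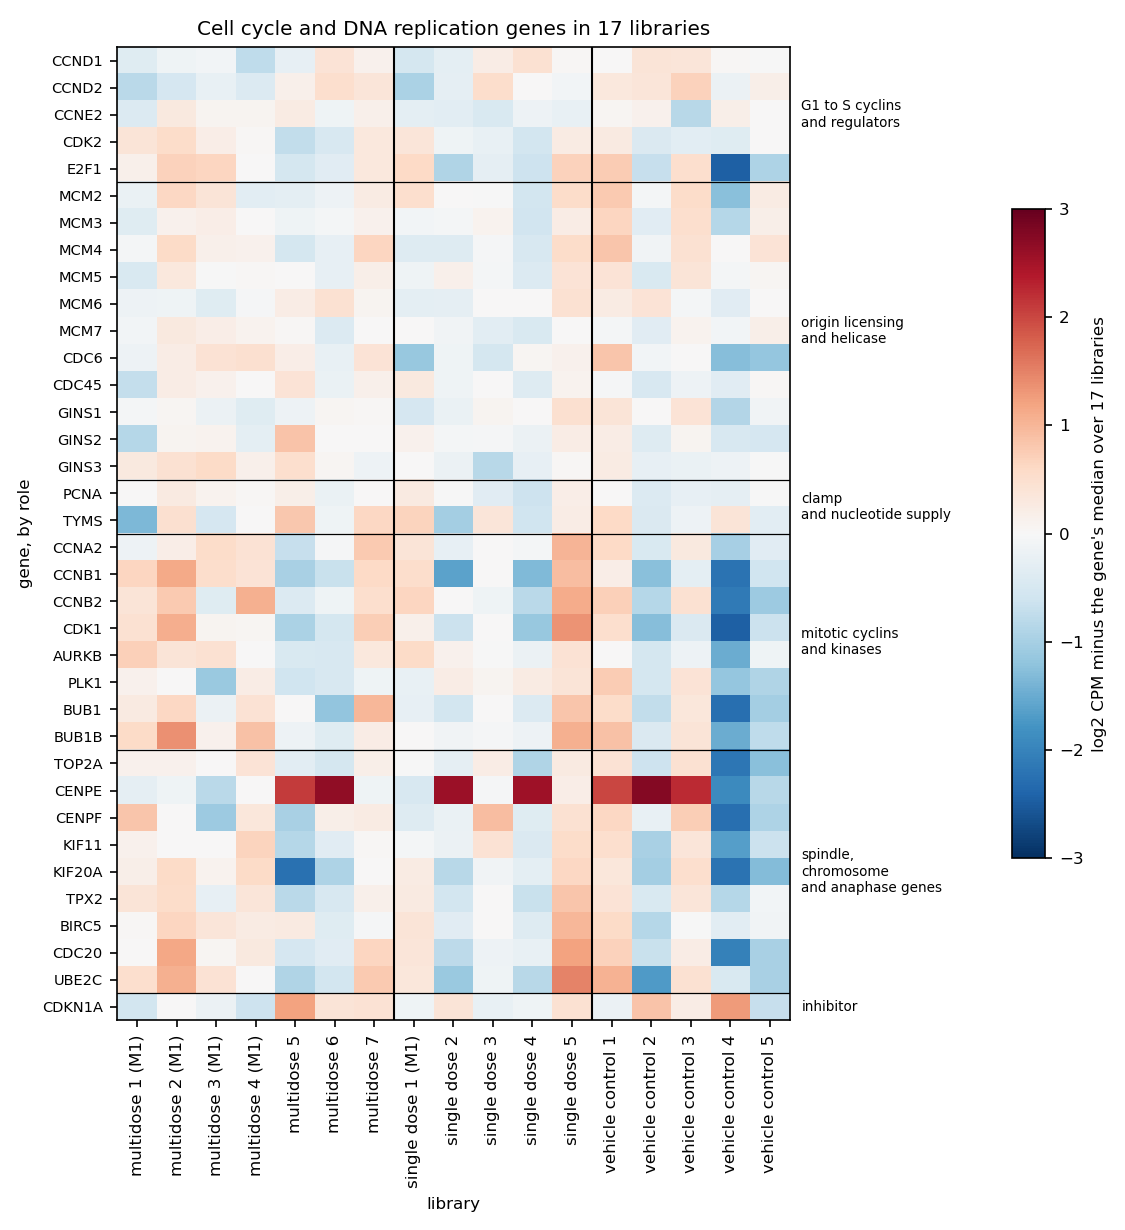
Each cell gives the log2 CPM of a gene (vertical axis, in order of role) in a library (horizontal axis, by group, with M1 marking the library name) minus the gene's median over the 17 libraries; red is above and blue below. The column of vehicle control 4 is blue through the mitotic block, single dose 5 is red there, and the CENPE row splits into 7 dark red and 10 other libraries.

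The replication genes did not share this spread to the same extent. Over the 13 tested genes for origin licensing, the helicase, the clamp and nucleotide supply, the median deviation was -0.33 in vehicle control 4, and the control libraries ran from -0.33 to 0.39 (SD 0.31, n = 5). Vehicle control 4 was still the lowest of 17 libraries for 4 of these 13 genes, and 1 of the 13 lay above its median there. Within groups, the SD of log2 CPM had a median of 0.76 over the 8 mitotic cyclins and kinases and of 0.79 over the 9 spindle, chromosome and anaphase genes. For comparison, it was 0.36 over the 11 licensing and helicase genes, 0.40 over the 5 G1 to S genes and 0.35 over all genes tested. By these medians over genes, the mitotic roles varied more from animal to animal than the licensing and helicase genes. Single genes overlapped, with 0.47 for BIRC5 and 0.48 for AURKB against 0.55 for MCM2 and 0.58 for CDC6. The 2 clamp and nucleotide genes had a median of 0.45 (PCNA 0.24, TYMS 0.66). Vehicle control 4 is included in these SDs, and the genes of a role are not independent of each other.

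**Figure D2:**
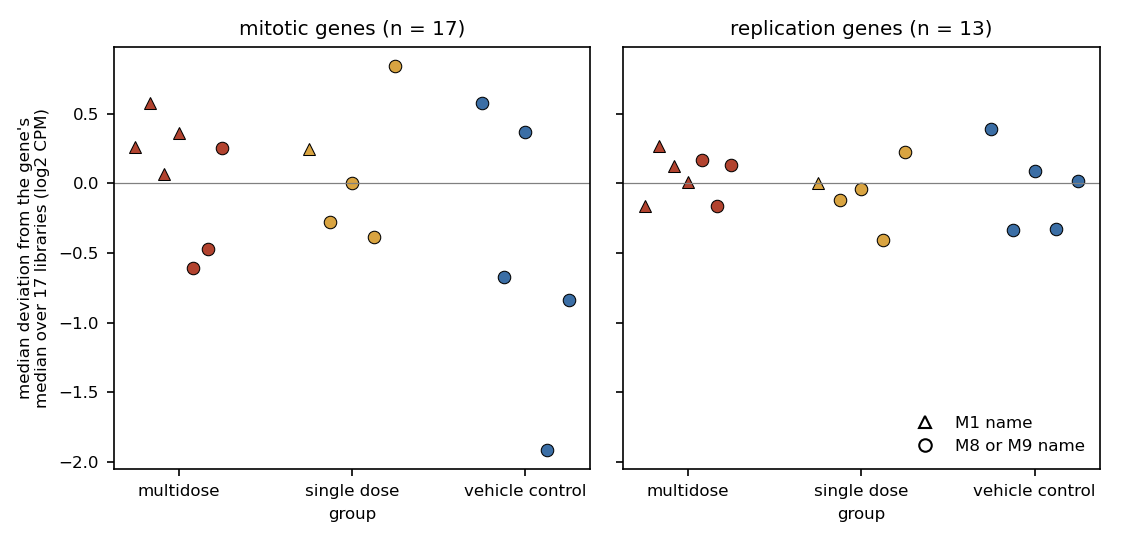
The vertical axis shows the median deviation in log2 CPM over the 17 mitotic genes (left) and the 13 replication genes (right) in each library, by group on the horizontal axis, with triangles for libraries named M1 and circles for M8 or M9. The lowest point on the left is vehicle control 4 at -1.92, while all points on the right lie between -0.40 and 0.39.

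Vehicle control 4 lay at or near an end of the 17 libraries in other values as well. FKBP5, which encodes a co-chaperone that is induced by glucocorticoids, stood at 274.7 CPM in vehicle control 4 and at 20.8 to 67.8 CPM in the other 16 libraries, a gene chosen after its values were seen. CDKN1A, which encodes the cyclin-dependent kinase inhibitor p21, also had its highest value there (162 CPM). The summed macrophage markers (727 CPM) and neutrophil markers (11.9 CPM) of vehicle control 4 were the highest of the 17 libraries. The next values were 639 CPM (macrophage, vehicle control 1) and 5.90 CPM (neutrophil, single dose 5). A sum can rest on few markers. Of the 10 macrophage markers, CD163 alone ran from 14.1 to 207 CPM over the 17 libraries. The neutrophil sum holds the 3 of 5 markers with a row, and 1 of them had enough counts to be tested. Its T and natural killer cell markers (18.7 CPM) were the third lowest, close to multidose 3 at 18.3 CPM. Its total was 56650464 counts. The part of these values in the low mitotic transcripts was not tested.

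For the 3 comparisons of treatment, 0 of the 36 genes passed the threshold in any of them, where 0% of all genes did. The absence of calls also held for the 36 genes with DESeq2 and with limma-voom. Before adjustment, 1 gene of 36 (2.78%) had a p under 0.05 in the comparison of multidose with control, where 12.6% of all genes did (6.74% higher, 5.83% lower). It was also 1 of 36 for single dose against control (background 5.26%, of which 2.42% higher and 2.84% lower) and 1 of 36 for multidose against single dose (background 2.11%, of which 0.888% higher and 1.22% lower). The ranges of the groups overlapped for all 36 genes in each of these comparisons. Among all genes the ranges stood apart in the higher and lower direction for 0.145% and 0.126% (multidose against control), 0.422% and 0.453% (single dose against control) and 0.0378% and 0.0315% (multidose against single dose).

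The signs were uneven by role. Relative to control, 15 of the 17 mitotic genes had a positive log2 fold change in the multidose group (median 0.35) and 16 of 17 in the single dose group (median 0.35), where 49.3% and 50.4% of all genes were positive with medians of -0.01 and 0.00. The 2 comparisons share the same 5 control libraries, vehicle control 4 among them. Without vehicle control 4, the medians were 0.21 (13 of 17 positive) and 0.17 (14 of 17 positive). Without vehicle control 1 they were 0.63 and 0.66, and without vehicle control 3 they were 0.63 and 0.55, these being the controls with the highest mitotic values. Leaving out single dose 5 brought the single dose median to 0.12. With only the M8 and M9 libraries, the medians were 0.11 (10 of 17 positive) for multidose and 0.35 (17 of 17) for single dose. When vehicle control 4 was left out of these as well, a setting chosen after seeing the data, they were -0.07 (7 of 17 positive) and 0.16 (14 of 17). The size of the mitotic medians thus moved with single libraries and, for multidose, with the library names. The multidose sign turned in the last setting, which changes both, and in no setting that leaves out 1 library.

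Some lists of cell type markers were uneven in sign in these comparisons, with 0 markers past the threshold. Of all genes, 49.3% were positive for multidose and 50.4% for single dose against control. For multidose, 12.6% of all genes had an unadjusted p under 0.05 by edgeR. For multidose against control, 8 of 9 markers of T and natural killer cells were negative (median -0.59, 4 at an unadjusted p under 0.05), with a summed level of 12.4 to 48.4 CPM against 18.7 to 54.6 CPM in the controls. Of the 9 cardiomyocyte markers 8 were positive (median 0.38, 3 at an unadjusted p under 0.05; 52560 to 74615 CPM against 40322 to 64379 CPM), and of the 8 smooth muscle and pericyte markers 7 were negative (median -0.24; 716 to 1101 CPM against 1025 to 1396 CPM). In multidose 1 to 4, named M1, the T and natural killer cell sums were 12.4, 20.2, 18.3 and 22.4 CPM. In multidose 5 to 7 they were 48.4, 24.9 and 25.6 CPM. The smooth muscle and pericyte sums were 716 to 1075 CPM in multidose 1 to 4 and 1033 to 1101 CPM in multidose 5 to 7. For these 2 lists, the multidose differences and the library names cannot be fully told apart. For single dose against control, the median was -0.28 for the T and natural killer cell markers. It was 0.16 for the cardiomyocyte markers and 0.00 for the smooth muscle and pericyte markers. Endothelial markers were negative for 7 of 9 in multidose (median -0.10) and 8 of 9 in single dose (median -0.08). Fibroblast markers were positive for 6 of 8 (median 0.27) and 7 of 8 (median 0.14). Macrophage markers were positive for 5 of 10 in each. The part of these cell types in the mitotic differences was not tested.

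Of all 36 genes, 25 were positive for multidose against control (median 0.24), 21 for single dose against control (median 0.15) and 23 for multidose against single dose (median 0.05). With each library left out in turn, the 3 medians ran from 0.14 (without vehicle control 4) to 0.36 (without vehicle control 1), from -0.02 (without single dose 5) to 0.28 (without vehicle control 1), and from -0.04 (without single dose 4) to 0.21 (without single dose 5). The 13 replication genes had medians of 0.06, -0.07 and 0.05 in the same order. These had no steady sign when a library was left out, and ran from -0.06 (without multidose 5) to 0.10 (without multidose 6), from -0.19 (without single dose 5) to 0.08 (without vehicle control 1), and from 0.00 (without single dose 4) to 0.15 (without single dose 5). Against single dose, 8 of the 17 mitotic genes were positive in the multidose group (median -0.02), and 50.5% of all genes were. That median was 0.26 without single dose 5 (14 of 17 positive), -0.14 without single dose 2, -0.11 with a term for M1 names (3 of 17 positive) and -0.27 with only the M8 and M9 libraries (2 of 17 positive).

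**Figure D3:**
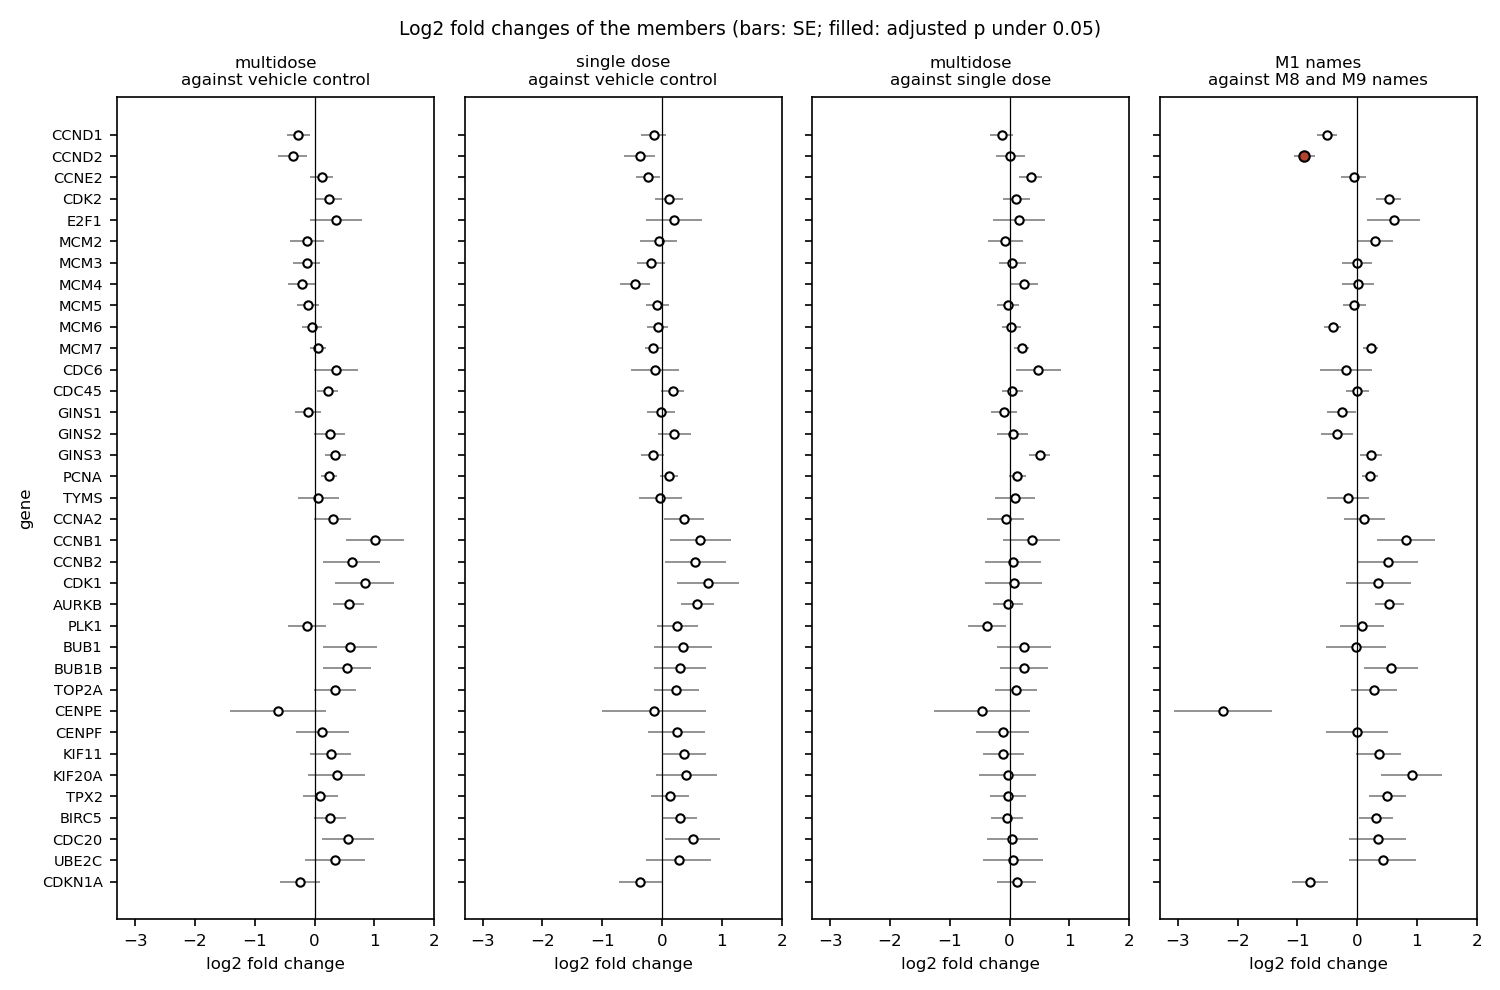
Points give the log2 fold change of each of the 36 genes (vertical axis, in order of role) in 4 comparisons, with bars of 1 SE, and a filled point has an adjusted p under 0.05. CCND2 in the comparison of library names is the single filled point, and the mitotic genes in the middle of the axis carry the longest bars.

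Among the cyclins and regulators of G1 and entry into S phase, the D-type cyclins act first. CCND1 (ENSSSCG00000037900, chromosome 2, 3621242 to 3633380), cyclin D1, partners CDK4 and CDK6 to inactivate the retinoblastoma protein. CCND1 stood at 240.6, 315, 311, 247 and 238 CPM in vehicle controls 1 to 5, at 166, 197, 282, 332 and 247 CPM in single dose 1 to 5, and at 143 (lowest), 219.9 (median) and 319 CPM (highest) in the multidose group. The lowest values were in multidose 4 and single dose 1, both named M1, and the groups overlapped. The log2 fold change of CCND1 was -0.27 (SE 0.19, adjusted p = 0.532 by edgeR) for multidose and -0.14 (SE 0.21, adjusted p = 0.925) for single dose against control.

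CCND2 (ENSSSCG00000038694, chromosome 5, 66092483 to 66114575) encodes cyclin D2, a second partner of the same kinases. It stood at 111, 114.4, 145, 78.6 and 100.3 CPM in vehicle controls 1 to 5 and at 46.1, 74.5, 128, 89.4 and 85.1 CPM in single dose 1 to 5. In the multidose group CCND2 ran from 51.2 through a median of 76.9 to 126 CPM. Of the 6 lowest values 5 belonged to M1 libraries, and the groups overlapped. Log2 fold changes of CCND2 against control were -0.36 (SE 0.24, adjusted p = 0.520 by edgeR) for multidose and -0.38 (SE 0.26, adjusted p = 0.891) for single dose.

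CCNE2, cyclin E2, activates CDK2 at the start of S phase. Its values were 2.39, 2.47, 1.25, 2.57 and 2.28 CPM in the controls, 1.84, 1.82, 1.66, 2.04 and 1.93 CPM in the single dose animals, and 1.69, 2.42 and 2.78 CPM (lowest, median and highest) in the multidose animals. Vehicle control 3 was the lowest of all. CCNE2 differed by 0.36 (SE 0.19, adjusted p = 1 by edgeR) between multidose and single dose. CDK2, the kinase itself, was at 8.26, 5.03, 5.49, 5.31 and 6.83 CPM in the controls, at 8.83, 6.28, 5.83, 4.67 and 8.07 CPM in the single dose group, and from 4.05 to 9.95 CPM (median 7.80) in the multidose group. E2F1, a transcription factor that activates replication genes, had a lowest value of 0.675 CPM in vehicle control 4 and ran from 2.03 to 6.62 CPM in the other 16 libraries. CCNE1 itself had no row under its symbol. A row that the reference table of gene names assigns to CCNE1, not counted among the 36, had a log2 fold change of 0.08 (SE 0.34) for multidose against control.

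The 6 subunits of the MCM helicase, which is loaded on origins and unwinds DNA, showed small differences. MCM4 had the lowest p of the negative differences for single dose against control (-0.45, SE 0.25, adjusted p = 0.891 by edgeR). It stood at 9.38, 4.87, 7.305, 5.27 and 7.01 CPM in vehicle controls 1 to 5, at 4.003, 4.05, 5.12, 3.77 and 7.69 CPM in single dose 1 to 5, and at 3.62, 5.79 and 8.24 CPM (lowest, median and highest) in the multidose group. The highest control and the lowest multidose library thus bounded the range. MCM7 stood at 19.95, 16.3, 22.4, 19.6 and 23.6 CPM in the controls, at 20.8, 19.2, 16.6, 15.01 and 20.7 CPM in the single dose group, and from 15.5 to 25.2 CPM (median 21.2) in the multidose group. Against control, the MCM2, MCM3, MCM4, MCM5 and MCM6 differences were negative in both treated groups (-0.21 to -0.04 for multidose and -0.45 to -0.06 for single dose), and that of MCM7 was 0.06 for multidose and -0.14 for single dose, none past the threshold. Signs as small as these moved with the tool and the libraries. With limma-voom the multidose differences of MCM2, MCM3 and MCM5 were 0.11, 0.06 and 0.04, and among the M8 and M9 libraries that of MCM6 was 0.17.

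CDC6, which helps to load the MCM ring, rests on the fewest counts of the 36 genes, 5 to 61 per library. CDC6 had 1.05, 0.532, 0.565, 0.206 and 0.228 CPM in the controls, 0.23, 0.517, 0.377, 0.591 and 0.6252 CPM in the single dose group, and 0.482, 0.672 and 0.806 CPM (lowest, median and highest) in the multidose group. At counts as low as these, its log2 fold change of 0.48 between multidose and single dose had an SE of 0.38. CDC45 and the GINS proteins join MCM to form the active helicase. GINS3 (ENSSSCG00000002802, chromosome 6, 20162264 to 20170385) had the lowest unadjusted p of the 36 between multidose and single dose, 0.0109, and differed by 0.50 log2 units (SE 0.18, adjusted p = 1 by edgeR).

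GINS3 stood at 4.39, 3.11, 3.21, 3.32 and 3.66 CPM in the controls, at 3.68, 3.24, 2.06, 3.08 and 3.79 CPM in the single dose animals, and at 3.33, 4.49 and 5.52 CPM (lowest, median and highest) in the multidose animals. The 4 highest of the 17 values were in multidose animals, and single dose 3 was the lowest of all. Its partner GINS1 stood at 3.44, 2.62, 3.47, 1.39 and 2.44 CPM in the controls, at 1.84, 2.27, 2.76, 2.61 and 3.66 CPM in the single dose group, and at 2.02 to 2.73 CPM (median 2.50) in the multidose group. GINS1 differed by -0.10 (SE 0.22) between multidose and single dose, the sign opposite to that of GINS3.

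PCNA (ENSSSCG00000056538, chromosome 17, 14137746 to 14142584) encodes the sliding clamp that holds the polymerase on DNA. Its values were 23.4, 17.6, 19.6, 19.5 and 23.2 CPM in vehicle controls 1 to 5, 28.2, 23.3, 18.6, 15.3 and 26.8 CPM in single dose 1 to 5, and 20.2, 24.1 and 28.3 CPM (lowest, median and highest) in the multidose group. The highest multidose and single dose libraries exceeded every control, and single dose 4 was the lowest of all. PCNA differed by 0.24 (SE 0.14, adjusted p = 0.455 by edgeR) between multidose and control. TYMS, thymidylate synthase, which makes the thymidine nucleotide for DNA, ran from 4.15 to 18.5 CPM within the multidose group alone, and its log2 fold change against control was 0.07 (SE 0.34).

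Of the mitotic cyclins and kinases, AURKB was the gene with an unadjusted p under 0.05 in both comparisons with control. AURKB (ENSSSCG00000028924, chromosome 12, 53410833 to 53426165) encodes the kinase of the chromosomal passenger complex, which corrects attachments of chromosomes to the spindle. It stood at 5.97, 4.11, 5.27, 2.06 and 5.40 CPM in vehicle controls 1 to 5 and at 8.88, 6.51, 5.85, 5.18 and 7.999 CPM in single dose 1 to 5. In the multidose group AURKB ran from 4.20 through a median of 7.42 to 9.74 CPM. The highest control was exceeded by 4 of 7 multidose and 3 of 5 single dose libraries. Multidose 5 and 6 were among the libraries that did not exceed it.

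The log2 fold change of AURKB was 0.57 (SE 0.26, adjusted p = 0.388 by edgeR) for multidose and 0.59 (SE 0.27, adjusted p = 0.891) for single dose against the same controls. Without vehicle control 4 that of multidose was 0.39, and among the M8 and M9 libraries alone it was 0.21.

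CCNB1 (ENSSSCG00000029326, chromosome 16, 47338239 to 47348385) encodes cyclin B1, which activates CDK1 at the entry into mitosis. It stood at 3.61, 1.29, 2.51, 0.637 and 2.05 CPM in the controls and at 4.51, 0.992, 3.12, 1.22 and 5.99 CPM in the single dose animals. In the multidose group CCNB1 ran from 1.56 through a median of 4.50 to 6.90 CPM. Each treated group had libraries among the controls. Its log2 fold change against control was 1.01 (SE 0.49, adjusted p = 0.400 by edgeR) for multidose, the highest of the 36, and 0.64 (SE 0.51, adjusted p = 0.891) for single dose. Among the M8 and M9 libraries the multidose value of CCNB1 was 0.44.

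CDK1 (ENSSSCG00000010214, chromosome 14, 64233945 to 64255290), the kinase partner of CCNB1, had 4.15, 1.17, 2.14, 0.487 and 1.82 CPM in the controls, 3.22, 1.84, 2.89, 1.28 and 7.45 CPM in the single dose group, and 1.48, 3.05 and 6.18 CPM (lowest, median and highest) in the multidose group. The value in vehicle control 4 rests on 26 counts. CDK1 differed from control by 0.84 (SE 0.49, adjusted p = 0.468 by edgeR) in the multidose and 0.77 (SE 0.52, adjusted p = 0.891) in the single dose group. CCNB2, cyclin B2, had 1.48, 0.47, 1.24, 0.169 and 0.393 CPM in the controls, 1.43, 0.889, 0.804, 0.489 and 1.97 CPM in the single dose group and 0.657, 1.19 and 1.92 CPM (lowest, median and highest) in the multidose group. Its lowest value rests on 9 counts in vehicle control 4. For CCNB1, CDK1 and CCNB2 the lowest library was the same control, and single dose 5 or multidose 2 was the highest.

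PLK1, a kinase of spindle assembly and mitotic exit, was the mitotic kinase with a negative difference in the multidose group. It stood at 3.66, 1.47, 2.87, 0.937 and 1.14 CPM in the controls, at 1.84, 2.50, 2.29, 2.57 and 2.83 CPM in the single dose animals and at 0.969, 1.95 and 2.54 CPM (lowest, median and highest) in the multidose animals. PLK1 differed by -0.13 on the log2 scale (SE 0.32) for multidose and 0.26 (SE 0.34) for single dose against control, and of -0.38 (SE 0.32, adjusted p = 1 by edgeR) between multidose and single dose. For BUB1 and BUB1B, the checkpoint kinases that delay anaphase until chromosomes are attached, the multidose differences against control were 0.59 (SE 0.45) and 0.54 (SE 0.40). CCNA2, cyclin A2, which acts from S phase to early mitosis, differed by 0.30 (SE 0.31).

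TOP2A (ENSSSCG00000017473, chromosome 12, 22001300 to 22028452) encodes topoisomerase II alpha, which untangles sister chromosomes. It stood at 8.21, 3.97, 8.39, 1.33 and 2.52 CPM in vehicle controls 1 to 5, at 6.03, 5.02, 7.18, 3.24 and 7.41 CPM in single dose 1 to 5, and at 4.25, 6.65 and 8.16 CPM (lowest, median and highest) in the multidose group. Both the highest and the lowest of the 17 values belonged to control animals. TOP2A differed by 0.35 (SE 0.35, adjusted p = 0.679 by edgeR) for multidose and 0.24 (SE 0.38, adjusted p = 0.928) for single dose against control. The multidose value was 0.11 without vehicle control 4.

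Of the remaining spindle and anaphase genes, KIF11 and KIF20A encode mitotic kinesins, TPX2 a factor that activates Aurora A, BIRC5 survivin of the passenger complex, CENPF a kinetochore protein, and CDC20 and UBE2C parts of the ubiquitin pathway that triggers anaphase. Their log2 fold changes for multidose against control ran from 0.10 (TPX2, SE 0.30) to 0.55 (CDC20, SE 0.43). For single dose they ran from 0.13 (TPX2, SE 0.32) to 0.51 (CDC20, SE 0.46). All were positive and none passed the threshold. UBE2C had the widest range of these in single dose animals, from 1.30 CPM in single dose 2 to 8.16 CPM in single dose 5.

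CENPE (ENSSSCG00000023296, chromosome 8, 117888968 to 117965325), a kinesin that moves chromosomes to the middle of the spindle, had a pattern of its own. It stood at 9.19, 15.4, 10.7, 0.562 and 1.24 CPM in vehicle controls 1 to 5, at 1.61, 13.6, 2.21, 13.4 and 2.59 CPM in single dose 1 to 5, and at 1.86, 2.06, 1.26, 2.25, 9.86, 14.4 and 2.06 CPM in multidose 1 to 7. The libraries fell into 7 with 9.19 to 15.4 CPM and 10 with 0.562 to 2.59 CPM, with nothing between. The empty interval of 1.81 log2 units was the widest between neighbouring values for any of the 36 genes, and the next widest, 1.52 for E2F1, set apart 1 library only.

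High and low CENPE libraries occurred in every group, and the split followed the library names. Of the 8 libraries named M8, 7 were high and 1 was low (single dose 3, 2.21 CPM), while all 5 M1 and all 4 M9 libraries were low, at 0.562 to 2.59 CPM. This grouping of the names was noticed after the values were seen and was not tested. The SD of CENPE within groups was 1.62 on the log2 scale, the highest of the 36 genes. Its log2 fold changes were -0.61 (SE 0.80, adjusted p = 0.757 by edgeR) for multidose against control, -0.14 (SE 0.87, adjusted p = 0.983) for single dose against control and -0.47 (SE 0.81, adjusted p = 1) between the doses. BDH2, a neighbouring gene in the RefSeq annotation at 4587 bases from CENPE, stood at 19.7 to 34.9 CPM in all 17 libraries and showed no such split. Vehicle control 2 had the highest CENPE value of all, while its median deviation over the mitotic genes was -0.67. Whether the reads of the 7 high libraries cover the whole CENPE transcript was not tested, since the table holds 1 count per gene.

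**Figure D4:**
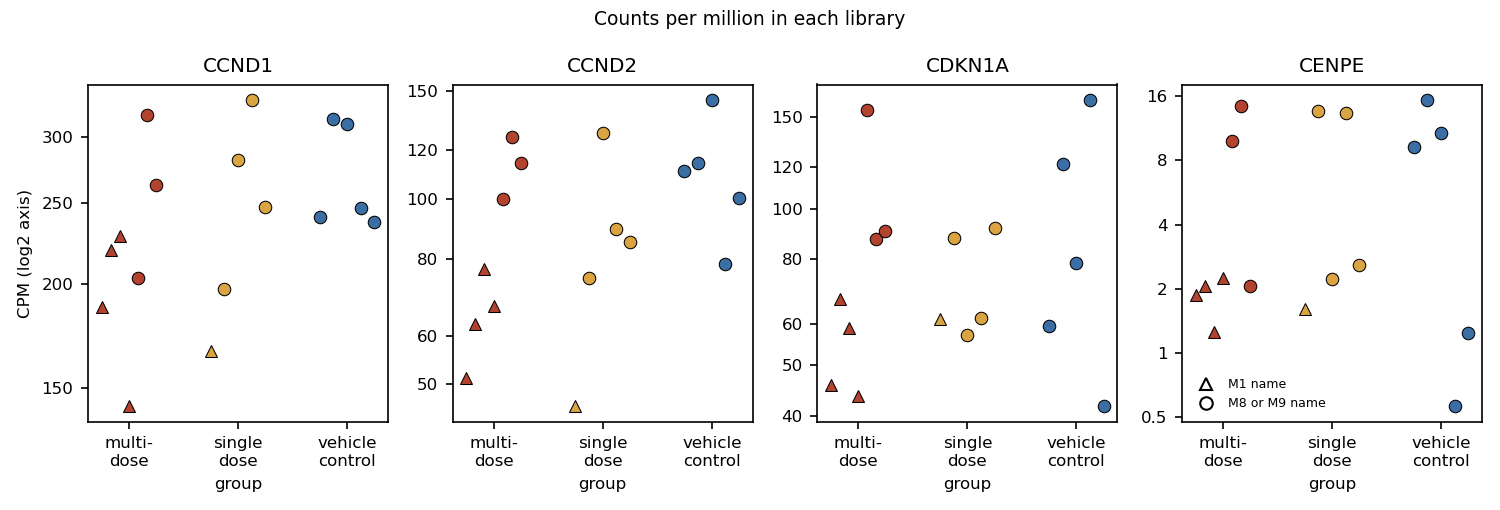
Vertical axes give CPM on a log2 axis for CCND1, CCND2, CDKN1A and CENPE in each library, by group on the horizontal axis, with triangles for libraries named M1 and circles for M8 or M9. The triangles of CCND2 lie between 46.1 and 76.9 CPM and the circles between 74.5 and 145 CPM, and the CENPE points leave the interval from 2.59 to 9.19 CPM empty.

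CDKN1A (ENSSSCG00000001565, chromosome 7, 32354776 to 32363771) is the inhibitor among the 36 genes, and its protein p21 stops cyclin-dependent kinases downstream of p53 and other stress signals. It stood at 59.6, 122, 78.7, 162 and 41.7 CPM in vehicle controls 1 to 5, at 61.4, 87.9, 57.2, 61.6 and 91.9 CPM in single dose 1 to 5, and at 43.7, 66.99 and 155 CPM (lowest, median and highest) in the multidose group. Vehicle control 4 and multidose 5 were the highest and vehicle control 5 the lowest. CDKN1A differed from control by -0.24 (SE 0.33, adjusted p = 0.761 by edgeR) in the multidose and by -0.36 (SE 0.36, adjusted p = 0.897) in the single dose group, and without vehicle control 4 the multidose value was 0.05.

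Between the libraries named M1 and those named M8 or M9, with the group held in the model, 1 of the 36 genes fell and 0 rose (background 8.06% and 5.92%, 14% in either direction). Before adjustment 7 of 36 (19.4%) had a p under 0.05, where 29.9% of all genes did. As all controls carry M8 or M9 names, this comparison rests on the treated animals, 4 M1 and 3 other multidose libraries and 1 M1 and 4 other single dose libraries. The M1 libraries also had lower totals, and what the names stand for and the treatment cannot be fully told apart. In the comparison of names, 14 of the 17 mitotic genes were positive (median 0.36, and 0.21 without multidose 5 to 0.62 without multidose 7), 6 of the 13 replication genes (median 0.00) and 48.6% of all genes (median -0.01). All M1 libraries had mitotic medians above 0, from 0.06 to 0.58, inside the range of the others.

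CCND2 was the gene that fell. It stood at 51.2, 62.8, 76.9 and 67.1 CPM in multidose 1 to 4 and at 46.1 CPM in single dose 1 (mean 60.8 ± 12.4, SD, n = 5), against 74.5 to 145 CPM in the other libraries (mean 105.6 ± 21.6, SD, n = 12). The ranges overlapped by a single pair, since single dose 2 was below multidose 3. Within the multidose group the CCND2 values were apart, at 51.2 to 76.9 CPM in the M1 libraries and 100.1 to 126 CPM in the rest. CCND2 fell by 0.88 log2 units (SE 0.17, adjusted p = 0.00489 by edgeR). Among the multidose libraries alone the difference of CCND2 was -0.81 (SE 0.16, adjusted p = 0.0318).

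Other genes of the early cycle did not pass. CCND1 differed by -0.50 log2 units (SE 0.17, adjusted p = 0.0621 by edgeR), and its M1 mean was 189 ± 36.0 CPM (SD, n = 5) against 266 ± 45.4 CPM (SD, n = 12). CDK2 differed by 0.53 (SE 0.20, adjusted p = 0.0915), at 8.51 ± 1.14 against 6.10 ± 1.49 CPM (SD). The D-type cyclins and CDK2 thus had opposite signs. MCM6, which stood at 20.99, 23.7, 17.1, 14.1 and 18.001 CPM in the controls, at 14.4, 14.7, 17.8, 17.8 and 24.4 CPM in the single dose animals and at 13.8, 17.4 and 24.4 CPM (lowest, median and highest) in the multidose animals, differed by -0.41 (SE 0.15, adjusted p = 0.0711).

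CDKN1A had a difference of -0.79 (SE 0.30, adjusted p = 0.0894 by edgeR), at 55.4 ± 10.2 CPM in the M1 libraries (SD, n = 5) against 91.2 ± 37.6 CPM (SD, n = 12). Within the multidose group its values were 43.7 to 66.99 CPM in the M1 libraries and 87.2 to 155 CPM in the others, with no overlap, and the fit of the multidose libraries alone gave -1.03 (SE 0.23, adjusted p = 0.0431). KIF20A stood at 4.20, 1.59, 4.69, 0.675 and 1.30 CPM in the controls, at 3.91, 1.84, 3.06, 2.65 and 5.11 CPM in the single dose animals, and at 0.657, 3.54 and 4.93 CPM (lowest, median and highest) in the multidose animals. Within the multidose group KIF20A was 3.54 to 4.93 CPM in the M1 libraries and 0.657 to 3.29 CPM in the others. Over the whole comparison of names KIF20A differed by 0.91 (SE 0.50, adjusted p = 0.236) and CENPE by -2.25 (SE 0.82, adjusted p = 0.0793). The CENPE value sets the M1 libraries against M8 and M9 together, and the M9 libraries were as low as the M1 ones, so that it rests on the M8 libraries.

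Within the multidose group the M1 and the other libraries thus had ranges apart for CCND2, MCM6 and CDKN1A in the lower direction (3 of 36, where 11.9% of all genes were apart) and for KIF20A in the higher direction (1 of 36, background 10%). The lower count is 8.33% of the 36 and the higher one 2.78%, both below their background. Over all 17 libraries the ranges overlapped for all 36 genes, where 2.73% of all genes stood apart as higher and 3.01% as lower in the M1 libraries.

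Some cell type markers differed by library name too. Of all genes, 5.92% rose and 8.06% fell in the M1 libraries, and 48.6% were positive. In lists as short as these, 0 or 1 call cannot be told apart from those shares. Of 8 fibroblast markers 3 rose in the M1 libraries and all 8 were positive, and their summed level was 4564 to 8240 CPM against 2823 to 6543 CPM in the others. Among 9 markers of T and natural killer cells 3 fell and 1 rose, with a summed level of 12.4 to 22.4 CPM against 18.7 to 54.6 CPM. Of the 10 macrophage markers 0 rose or fell (339 to 523 CPM against 298 to 727 CPM). Of 4 tested erythroid markers 1 rose (279 to 836 CPM against 180 to 701 CPM), of 9 endothelial markers 1 rose, and of 8 smooth muscle and pericyte markers 1 fell. Of 3 tested atrial markers 1 fell, by 2.91 on the log2 scale (34.3 to 53.7 CPM against 22.8 to 132 CPM), and 0 of 9 cardiomyocyte markers passed. No marker with a row that defines these lists was at 0 in every library. Their part in the CCND2 difference was not tested.

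A wider list held 126 cell cycle genes outside the 40, of which 122 had a row and all but 1 of these were tested. None passed in the comparisons of treatment by edgeR, with 12 (9.92%), 6 (4.96%) and 1 (0.826%) at an unadjusted p under 0.05 for multidose against control, single dose against control and multidose against single dose. These shares lie below the 12.6%, 5.26% and 2.11% of all genes. Positive differences were found for 82 (67.8%), 83 (68.6%) and 64 (52.9%) of those tested (medians 0.11, 0.10 and 0.03), where 49.3%, 50.4% and 50.5% of all genes were positive. The lowest p values for multidose against control belonged to NUF2, a kinetochore protein (0.80, SE 0.25, adjusted p = 0.366 by edgeR), and ORC4, a subunit of the origin recognition complex (0.47, SE 0.15, adjusted p = 0.366). NUF2 had 3.38 ± 0.85 CPM in the multidose (SD, n = 7) and 1.93 ± 0.41 CPM in the control animals (SD, n = 5). On the negative side were E2F4, a repressive E2F factor of resting cells (-0.32, SE 0.11, adjusted p = 0.366), and E2F2, an activating one (-0.83, SE 0.35, adjusted p = 0.384).

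For single dose against control the list was led by RPA2, a subunit of the single-strand binding protein (0.30), and NUF2 (0.62) in the positive direction. WEE1, the kinase that restrains CDK1 (-0.57), and CDC25B, a phosphatase that activates it (-0.49), led in the negative direction. All 4 had an adjusted p of 0.891 by edgeR. Between multidose and single dose they were WEE1 (0.44) and RPA3 (0.33), against NCAPD2, a condensin subunit (-0.27), and BTG2, an antiproliferative gene (-0.56), each with an adjusted p of 1. The BTG2 value carries single dose 1, the highest of all libraries at 52.1 CPM, where the multidose animals ran from 11.002 to 16.02 CPM.

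By library name, 5 genes of the wider list (4.13%) rose and 4 (3.31%) fell in the M1 libraries, below the 5.92% and 8.06% of all genes. SESN1, a stress gene downstream of p53 (0.65, SE 0.14, adjusted p = 0.00816 by edgeR), DUT, which keeps uracil out of DNA (0.60, SE 0.13, adjusted p = 0.00897), RFC1 of the clamp loader, the inhibitor gene CDKN2C and RBL2, of the retinoblastoma family, rose. E2F7, a repressive E2F factor (-1.33, SE 0.31, adjusted p = 0.0107), E2F4 (-0.35, SE 0.09, adjusted p = 0.0147), INCENP, which encodes a partner of Aurora B, and POLD1, a replicative polymerase, fell. E2F4 was 17.8 to 19.6 CPM in the 5 M1 libraries and 22.3 to 28.7 CPM in the other 12, and E2F7 was 0.387 to 1.39 CPM against 1.57 to 3.02 CPM. DUT was 33.2 to 37.2 CPM against 14.9 to 29.2 CPM. In the wider list these were the genes with ranges apart, 1 higher (0.826%) and 2 lower (1.65%), where 2.73% and 3.01% of all genes were.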

How the data were processed

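RNA of right ventricular myocardium was sequenced on an Illumina NextSeq instrument, per the labels' protocols. The authors deposited 1 table of raw counts per Ensembl gene for 17 libraries, and all values are whole numbers. Per the submitters' processing notes, the build was Sscrofa11.1 and the tools were HISAT2 2.1.0 and Subread 1.6.2, with SAMtools 1.7, Trimmomatic 0.33 and FastQC 0.11.7. Whether counting used strand is not stated in the sources used here, nor is the gene annotation, so reads of a gene and of an antisense partner cannot be told apart. Groups come from the sample titles. The analysis used edgeR 4.0.16 under R 4.3.3: filterByExpr (minimum count 10), TMM scaling, and a robust quasi-likelihood fit with 1 coefficient per group over all 17 libraries. The comparison of library names added a term for M1. P-values are two-sided and Benjamini-Hochberg adjusted over the 15884 genes of a comparison, with a threshold of 0.05. The SE is the fold change over the root of F. CPM uses TMM-scaled totals, and log2 CPM has a prior count of 2. The code was tested on simulated data. Positions are RefSeq's on Sscrofa11.1, matched by symbol for all 40 symbols. Values in each control and single dose library are given for CDKN1A, CCND1, CCND2, TOP2A and PCNA. They are also given, in each comparison, for the 4 members with the smallest p in each direction. The multidose values of most of these genes are given as lowest, median and highest. From the wider list the 2 genes with the smallest p in each direction are named. The members, lists and tests were chosen with earlier results of these data known. Alternatives were RLE and upper-quartile scaling, 2 other low-count filters, DESeq2 1.42.0, limma-voom (limma 3.58.1), thinning, covariates from library names, subsets of libraries and each library left out. Sequences were not used here.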

Additional observations from a re-analysis of the deposited data

Results flagged for a closer look

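In 108 sets of 1 gene in 1 treatment group, 2 had a library far from the rest of its group by Dixon's criterion, and chance alone gives about 1 in 20. CCNE2 in vehicle control 3 had a log2 CPM of 0.37, while the other 4 controls ran from 1.22 to 1.39. BUB1B in single dose 5 had a log2 CPM of 1.48, while the other 4 single dose libraries ran from 0.27 to 0.42.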

How the results depend on the processing

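None of the 36 genes passed in the comparisons of treatment under any alternative, and no called value changed sign. CCND2 in the comparison of library names passed under 28 of 29 alternatives (adjusted p from 4.1e-05 to 0.125, log2 fold change from -0.98 to -0.80). It did not pass with the replicate numbers of the titles as a replicate block (-0.81, adjusted p = 0.125), where 0 of the 36 genes and 11 genes in all were called. Of 15 same-numbered pairs, 4 had a correlation of deviations over 0.1 (r from -0.22 to 0.41), and 1 of 15 libraries correlated best with its own number. Low correlations cannot decide whether the numbers pair the animals. The count of members called by library name was 3 with DESeq2, 8 with limma-voom, 2 after thinning to the shallowest total, 5 without a group term, 2 among the multidose libraries alone, and 1 to 3 with a library left out. The 3 came without multidose 7, and 2 were called without multidose 5 or vehicle control 4. Over all genes the same comparison called 2220 genes, 3003 with DESeq2, 4525 with limma-voom, 3783 without a group term, 723 among multidose libraries alone and 858 without single dose 1. The counts over all genes after thinning and with the other libraries left out are not given here. The member counts of those settings therefore have no background beside them. DESeq2 called 8 genes for multidose and 10 for single dose against control, where edgeR called 0, and the block called 1 for multidose. Members with a positive difference numbered 15 to 32 of 36 with a library left out for multidose against single dose, the lowest without single dose 4 and the highest without single dose 5. For multidose against control the number was 16 with only M8 and M9 libraries and vehicle control 4 left out. At an unadjusted p under 0.05, 1 member for multidose against control became 2 with DESeq2, 9 with limma-voom and 6 with the block. The shares of all genes under these 3 settings are not given here, so these counts are no result about the members. The lowest count behind a value was 5 reads (CDC6), and counting error weighs on CDC6, CCNB2 and BUB1 in shallow or low libraries.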
